A study of Mus musculus with 16 samples.

Results

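The 6 actin genes of the mouse, Acta1, Actc1, Acta2, Actg2, Actb and Actg1, were followed in the left ventricle after pressure overload. Their members were all probe sets whose platform annotation gave exactly 1 gene symbol, equal to 1 of these 6. These 6 genes, of 12394 named by a probe set with 1 symbol, had 11 such probe sets among the 22690 of the array, and 0 probe sets with several symbols held an actin. Of the 11, 3 were array controls for the 3′ end, the middle and the 5′ end of Actb, and 8 were ordinary probe sets.

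The series asked how the early response to pressure overload differs between male and female mice. All animals were C57BL/6J mice, 12 to 14 weeks old. They underwent transverse aortic constriction (TAC), a narrowing of the aortic arch against which the left ventricle must pump, or a sham operation without it. The 4 groups were male TAC, female TAC, male sham and female sham, with 4 biological replicates each, and RNA of the left ventricle was taken 14 days after surgery and measured with 1 animal per array.

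Actin forms the thin filament of the sarcomere and the filaments of the cytoskeleton, and each of the 6 genes is used by a preferred set of cell types. Actc1 encodes cardiac α-actin, the main sarcomeric actin of the adult ventricle, and Acta1 encodes skeletal α-actin, which the rodent heart expresses before birth and again under load. Acta2 and Actg2 encode the vascular and enteric smooth muscle actins, and Acta2 is also made by activated fibroblasts. Actb and Actg1 encode the cytoplasmic β- and γ-actin of all cells. The coding sequences of the 6 genes are closely alike. Probe sets whose name ends in _s_at, here those reporting Acta2 and Actg1, hold probes that match more than 1 transcript, and what share of their signal belongs to another transcript was not tested.

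Several actin promoters carry CArG boxes, the binding element of serum response factor (SRF), and they are shown because the members did not change alike. The 250 bases before the RefSeq start (GRCm38.p6, minus strand for all 4 genes matched) are given 5′ to 3′, with CArG boxes, and boxes with 1 base of the A/T middle changed, in capitals. The regions are chr8:123894776-123895025 for Acta1, chr2:114052876-114053125 for Actc1, chr19:34255374-34255623 for Acta2 and chr11:120348496-120348745 for Actg1.
Acta1: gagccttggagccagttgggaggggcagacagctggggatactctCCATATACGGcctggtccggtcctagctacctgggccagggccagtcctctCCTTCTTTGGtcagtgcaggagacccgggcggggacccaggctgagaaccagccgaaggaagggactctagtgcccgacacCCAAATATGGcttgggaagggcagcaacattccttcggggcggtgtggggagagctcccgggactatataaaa
Actc1: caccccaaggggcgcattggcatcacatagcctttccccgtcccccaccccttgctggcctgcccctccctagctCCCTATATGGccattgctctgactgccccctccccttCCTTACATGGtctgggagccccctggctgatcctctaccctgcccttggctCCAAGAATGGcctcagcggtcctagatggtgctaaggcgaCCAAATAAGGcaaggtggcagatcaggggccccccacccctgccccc
Acta2: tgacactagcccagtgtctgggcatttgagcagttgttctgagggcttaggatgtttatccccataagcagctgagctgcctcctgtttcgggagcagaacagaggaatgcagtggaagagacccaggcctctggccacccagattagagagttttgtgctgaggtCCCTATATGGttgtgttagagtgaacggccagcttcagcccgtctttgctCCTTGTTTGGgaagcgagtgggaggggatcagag
Actg1: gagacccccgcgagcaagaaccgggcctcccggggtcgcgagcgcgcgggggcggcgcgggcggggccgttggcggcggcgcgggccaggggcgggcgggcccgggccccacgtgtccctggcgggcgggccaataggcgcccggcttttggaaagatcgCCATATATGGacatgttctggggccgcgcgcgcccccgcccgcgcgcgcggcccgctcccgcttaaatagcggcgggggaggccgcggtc
Acta1, Actc1 and Actg1 each held 1 unchanged CArG box, at -73 to -64, -47 to -38 and -90 to -81 from the start. Acta1 held 2 further boxes with 1 base changed, Actc1 held 3, and Acta2 held 2 with no unchanged box. Over the same window, 1.47% of 32851 mouse promoters held an unchanged box on either strand and 8.59% held a box with at most 1 base of its middle changed. The MCAT element CATTCC, the site of TEAD factors, lay in the Acta1 promoter at -46 to -41 and, on the other strand, in the Acta2 promoter at -146 to -141, as in 12.6% of all promoters. On the forward strand, TATAAA lay in the Acta1 window at -7 to -2 and occurs in 7.59% of promoters. These are matches of letters, and binding was not measured.

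Signals below are the authors' scaled intensities in arbitrary units, and only values of the same probe set are compared. Fold changes are differences of group means of log2(signal + 16), given with their standard error (SE). Adjusted p values come from a limma model of the 4 groups, with Benjamini-Hochberg adjustment over the 13576 probe sets that passed a filter on dim signals. A probe set is said to rise or fall where its adjusted p was below 0.05. Of the 8 ordinary actin probe sets, 7 passed the filter. The exception, 1456658_at for Acta2, had signals of 7.7 to 117.9, below the limit of 130.8, and was not called in any of the 6 comparisons when tested in the same model without the filter.

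**Figure D1:**
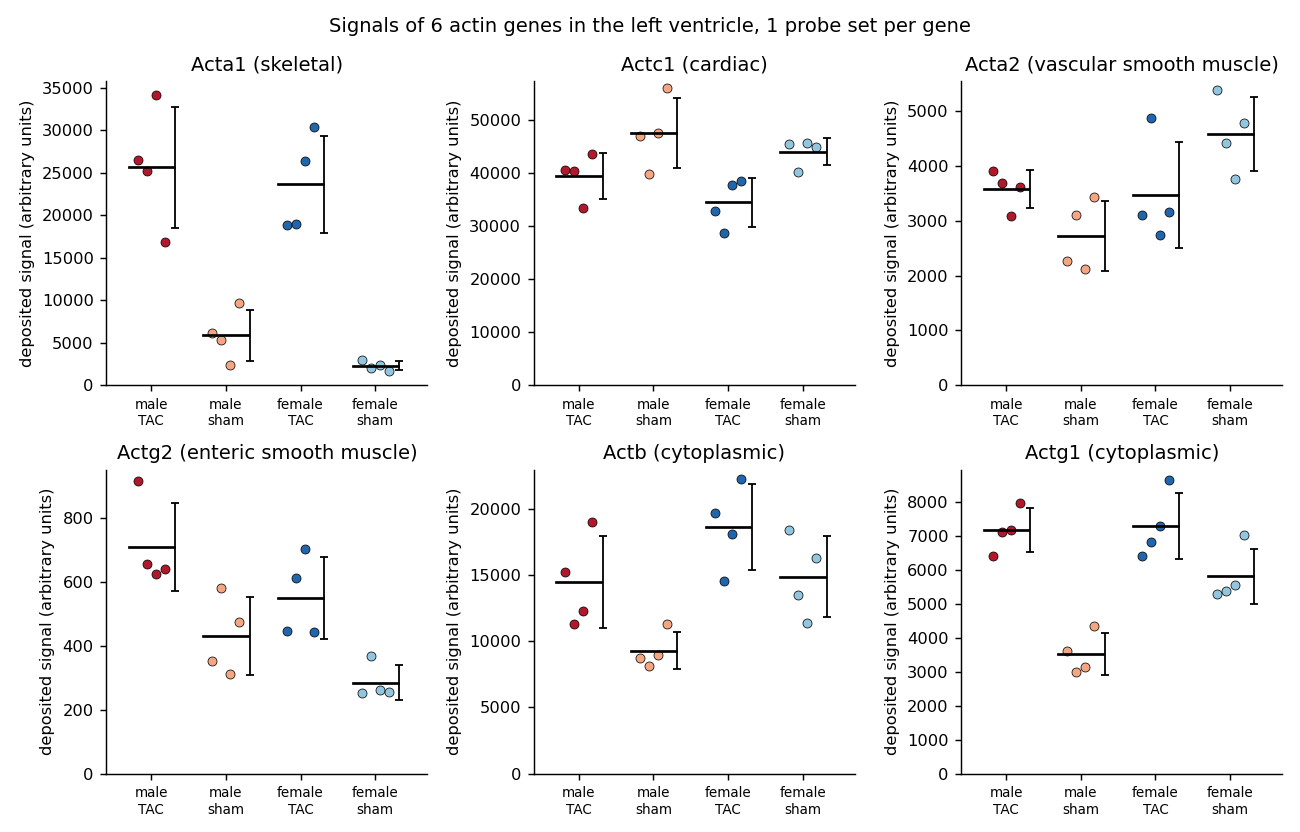
Signal of the probe set reporting each of the 6 actin genes (vertical axis, arbitrary units, from 0) in the 4 groups; points are single arrays, lines are means of 4 arrays and bars at the side are SD. The 8 TAC arrays lie above the 8 sham arrays for Acta1, and Acta2 is highest on average in female shams.

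Markers of heart muscle were bright on every array, with Myh6 at 33693.0 or more. Array medians lay between 189.8 and 222.3. Control signals moved with the operation: the log2 signal of the 5′ probe set of 18S rRNA was 10.3 ± 1.91 in male TAC and 13.3 ± 0.5 in male shams, 10.2 ± 0.611 in female TAC and 11.9 ± 0.915 in female shams (SD, n = 4 each). The 3′ to 5′ signal ratio of the Gapdh control was 1.08 ± 0.0703 in male TAC and 0.885 ± 0.0394 in male shams, 0.989 ± 0.03 in female TAC and 0.865 ± 0.0579 in female shams. The 18S signal of single male TAC arrays ranged from 9.06 to 13.2. The 7 actin probe sets in the model were therefore also fitted with either quantity as a covariate. These values are given where they changed a call, or moved a difference between TAC and sham within a sex by over 1.5 times. The Gapdh ratio of every TAC array exceeded that of every sham array of the same sex. That covariate and the operation therefore cannot be told apart, and a call lost with it cannot be assigned to either.

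In males, 4 of the 7 actin probe sets rose after TAC, against 8.07% of all probe sets tested, and 0 fell, against 9.77%. In females, 2 rose, against 6.46% of all, and 1 fell, against 8.6%. Averaged over the sexes, 4 rose, against 12.9%, and 1 fell, against 15.8%. The median log2 fold change of the 7 was 0.62 in males, 0.33 in females and 0.47 averaged, beside -0.03 for all probe sets in each of the 3 comparisons. Groups without any overlap, TAC above sham, were found for Acta1, Actg2 and Actg1 in males (8.75% of all probe sets) and for Acta1 and Actg2 in females (8.29% of all). Those with TAC below sham comprised Actc1 in females (11.6% of all). When the Gapdh ratio, which itself separated TAC from sham within each sex, entered the model, the calls fell to 2 in males, 1 in females and 3 averaged. Centring each array on its median gave 64.4% of all calls in females as higher instead of 42.9%, 60.3% instead of 44.9% averaged, and 54.7% instead of 45.2% in males. It put the median of all probe sets in females at 0.09 instead of -0.03.

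**Figure D2:**
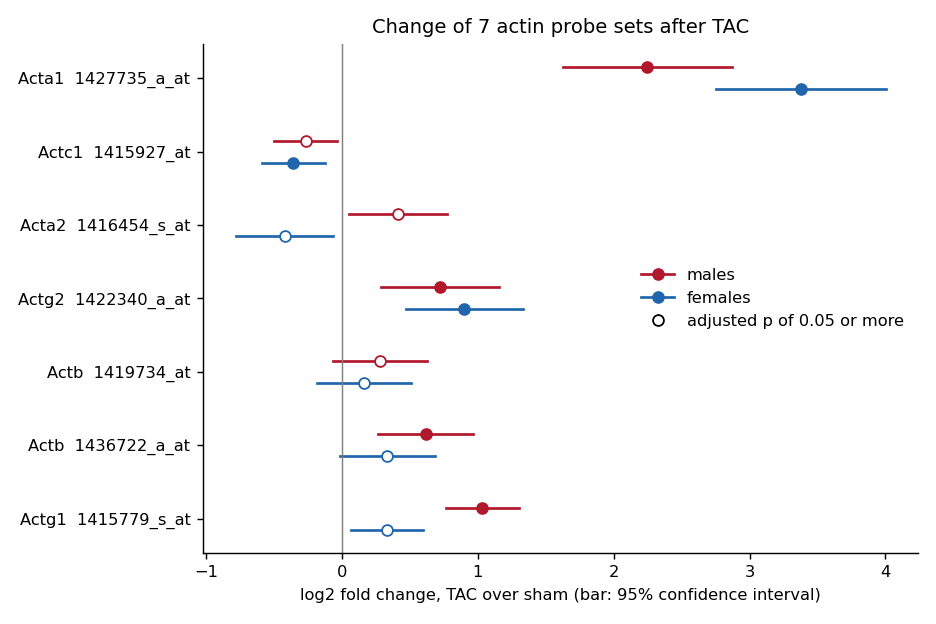
Log2 fold change of TAC over sham (horizontal axis) for the 7 actin probe sets past the filter, in males (red) and females (blue); bars are 95% confidence intervals and open circles have an adjusted p of 0.05 or more. Acta1 stands far to the right of the others in both sexes, and the 2 intervals of Acta2 lie on opposite sides of 0.

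Acta1 had the greatest change of the family. Its signal was 26435.4, 25189.8, 34150.2 and 16776.1 in male TAC, against 6142.4, 5329.9, 2352.5 and 9621.4 in male shams. In females it was 18818.2, 18973.8, 26356.3 and 30313.0 after TAC, against 2948.8, 2024.8, 2326.1 and 1704.9 after sham surgery. All 8 TAC arrays thus lay above all 8 sham arrays, which 2.84% of all probe sets showed in that direction and no other actin probe set of the 7 did. The means were 25638 ± 7114 in male TAC, 23615 ± 5684 in female TAC, 5861.5 ± 2990 in male shams and 2251.2 ± 529.8 in female shams (SD, n = 4 each).

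Acta1 rose 4.75-fold in males (log2 fold change 2.25 ± 0.30, adjusted p = 3.07e-05) and 10.4-fold in females (3.38 ± 0.30, adjusted p = 5.15e-07). In females this was the highest log2 fold change of all 13576 probe sets, while in males it ranked 19 and averaged over the sexes 4. The rise was called under every alternative tried in either sex, with the lowest value in males, 1.61, when the 18S signal entered the model (adjusted p = 0.0197). The skeletal muscle myosins Myh1, Myh2 and Myh4 and Actn3, the fast-fibre α-actinin, had median signals of 25.7, 65.5, 51.2 and 35.25, all below the filter. Of 12 measured skeletal muscle markers 3 passed the filter, Myl1, Atp2a1 and Casq1, and none was called in either sex. Over all genes, 8.1% rose and 7.77% fell in males, and 6.37% rose and 6.69% fell in females. Casq1 differed by 0.74 in males and 0.82 in females (adjusted p = 0.0902 and 0.0659). Myl1 differed by -0.58 and 0.61 (adjusted p = 0.256 and 0.238), and Atp2a1 by 0.02 and -0.40 (adjusted p = 0.982 and 0.679). The summed signal of the 12 was 2463 to 4421 in male TAC and 2992 to 4362 in male shams. In females it was 2653 to 3901 after TAC and 1815 to 2958 after sham surgery. The part of skeletal muscle tissue in the Acta1 signal was not tested.

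Among 5 atrial markers, 3 of them past the filter, 2 were called higher in each sex, against 8.1% of all genes in males and 6.37% in females. They were Nppa and Myl4, which the stressed ventricle is also known to express. The summed atrial signal was 17984 to 41992 in male TAC and 4264 to 6897 in male shams, 14308 to 37461 in female TAC and 3252 to 4349 in female shams. The atrial light chain Myl7 and the atrial calcium pump regulator Sln were below the filter on mean signal, with medians of 121.9 and 19.15 and maxima of 748.4 and 309.7. In the model without the filter, Myl7 differed by 2.58 in males (adjusted p = 0.0571) and 1.90 in females (adjusted p = 0.196), and Sln by 1.26 in males (adjusted p = 0.296) and 1.53 in females (adjusted p = 0.195). Bmp10, an atrial growth factor past the filter, differed by 0.65 in males (adjusted p = 0.565) and 1.19 in females (adjusted p = 0.256). The part of atrial tissue in the Acta1 signal was not tested.

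Actc1, the adult cardiac isoform, was slightly lower on average after TAC in both sexes, except that the sign in males turned under quantile normalization. Its signal was 40545.4, 40486.7, 33412.5 and 43669.6 in male TAC, against 47104.6, 39959.3, 47547.4 and 56088.4 in male shams. In females it was 32885.8, 28816.3, 37711.5 and 38636.4 after TAC, against 45482.0, 40235.2, 45736.8 and 44897.1 after sham surgery. The female groups did not overlap, and the male groups did. Actc1 fell in females (log2 fold change -0.36 ± 0.11, adjusted p = 0.0328) and averaged over the sexes (-0.31 ± 0.08, adjusted p = 0.00484), and in males it differed by -0.27 ± 0.11 (adjusted p = 0.109).

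The signals of Actc1 ran from 28816.3 to 56088.4, where the highest signal of any probe set was 64395. Whether signal was still proportional to RNA at that level was not tested. The call for Actc1 depended on the scaling and, in females, on single arrays. Under quantile normalization the difference was 0.04 in males and -0.04 in females (adjusted p = 0.787 and 0.789), and with median centring it was -0.21 and -0.24, not called in either sex. The call in females was also lost without female TAC replicate 1 or 2, or without female sham replicate 1, 3 or 4, with values of -0.34, -0.28, -0.34, -0.34 and -0.35 and adjusted p of 0.0727 to 0.114. The value averaged over the sexes was called whichever array was left out, at -0.355 to -0.272. The call in females was lost as well with no filter or no intensity trend (adjusted p = 0.12 and 0.0965). In males a call was gained without male sham replicate 2 (-0.35, adjusted p = 0.0421). Entering the 18S signal gave -0.04 in males and -0.23 in females, and entering the Gapdh ratio gave -0.28 and -0.37, none of them called. The averaged call was lost with median centring (-0.23, adjusted p = 0.081), quantile normalization and either covariate. The summed signal of the 10 cardiomyocyte markers was 277002 to 332676 in male TAC and 325304 to 382415 in male shams, 248158 to 308636 in female TAC and 329923 to 358278 in female shams. In bulk tissue such as this, fewer cells of a type and less RNA per cell cannot be told apart.

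Acta2, the vascular smooth muscle actin, did not pass the threshold in any comparison, and its sign after TAC differed between the sexes. Probe set 1416454_s_at had signals of 3918.2, 3694.5, 3094.8 and 3612.3 in male TAC, against 2258.0, 3099.3, 2123.7 and 3439.0 in male shams. In females it had 3105.4, 4884.7, 2738.1 and 3160.8 after TAC, against 5388.4, 4420.1, 3757.0 and 4783.3 after sham surgery. The groups overlapped in both sexes. The log2 difference was 0.41 ± 0.17 in males (adjusted p = 0.109) and -0.42 ± 0.17 in females (adjusted p = 0.107), with 95% confidence intervals that did not include 0. Entering the 18S signal gave 0.21 in males and -0.54 in females, and entering the Gapdh ratio gave 0.11 and -0.63, none of them called.

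Each of the 2 values without a covariate passed the threshold when 1 array was left out. Without male sham replicate 4 the male value was 0.53 (adjusted p = 0.0489), and without female TAC replicate 2 the female value was -0.60 (adjusted p = 0.0165). Averaged over the sexes, Acta2 differed by -0.01 (adjusted p = 0.98), and this sign turned with median centring (0.08). The vascular smooth muscle markers, 5 of 7 past the filter, had a summed signal of 2762 to 3929 in male TAC and 2591 to 2926 in male shams, 2428 to 3700 in female TAC and 2637 to 3166 in female shams. Of them Tagln, an actin-binding protein of smooth muscle (0.71, adjusted p = 0.0339), and Myl9, a regulatory light chain (0.78, adjusted p = 0.00635), rose in males. Myh11, the smooth muscle myosin (-1.34, adjusted p = 0.0401), fell in females. The others were not called, with Smtn at -0.37, Mylk at -0.18 and Myh11 at -0.15 in males. In females Tagln, Myl9, Smtn and Mylk differed by 0.375, 0.155, -0.026 and 0.03. Over all genes, 8.1% rose in males and 6.69% fell in females.

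Actg2, the enteric smooth muscle actin, rose in both sexes. Its signal was 917.0, 656.9, 623.7 and 641.1 in male TAC, against 353.4, 580.8, 313.4 and 475.4 in male shams. In females it was 445.4, 612.9, 702.4 and 443.2 after TAC, against 252.7, 369.1, 263.0 and 257.1 after sham surgery. The TAC and sham groups of either sex did not overlap, but the lowest female TAC arrays lay within the range of male shams. The rise was 1.65-fold in males (0.72 ± 0.21, adjusted p = 0.0196) and 1.87-fold in females (0.90 ± 0.21, adjusted p = 0.00541).

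The male call for Actg2 was lost without male TAC replicate 1 (0.59, adjusted p = 0.0732) and without male sham replicate 1 or 3 (0.64 and 0.59, adjusted p = 0.0603 and 0.0785). Entering the 18S signal gave 0.47 in males (adjusted p = 0.395) and 0.76 in females (adjusted p = 0.0511). Entering the Gapdh ratio gave 0.16 in males (adjusted p = 0.87) and 0.52 in females (adjusted p = 0.341). Averaged over the sexes Actg2 rose by 0.81 (adjusted p = 0.00029), and it was not called with either covariate (adjusted p = 0.0816 and 0.558).

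Actg1, the cytoplasmic γ-actin, rose in males. Its signal was 6389.3, 7096.7, 7174.4 and 7962.3 in male TAC, against 3617.2, 2986.6, 3122.1 and 4337.0 in male shams. In females it was 6398.1, 6809.2, 7284.6 and 8646.5 after TAC, against 5289.5, 5374.4, 5533.6 and 7002.7 after sham surgery. Male shams stood below the 3 other groups without overlap, while the female groups overlapped through the brightest female sham array. The rise in males was 2.05-fold (1.03 ± 0.13, adjusted p = 1.41e-05), and it was called under every alternative tried. In females the difference was 0.33 ± 0.13 (adjusted p = 0.0923), and it passed without female sham replicate 4 (0.42, adjusted p = 0.0399), with median centring (0.44, adjusted p = 0.0475) and when the 18S signal entered the model (0.46, adjusted p = 0.0449).

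Actb, the cytoplasmic β-actin often used as a loading reference, was measured by 5 probe sets that did not give the same size of change. Its reporting probe set, 1436722_a_at, had signals of 15203.5, 11274.6, 12275.0 and 18992.1 in male TAC, against 8734.0, 8160.4, 8956.8 and 11301.7 in male shams. In females it had 19681.9, 14520.3, 18062.0 and 22211.2 after TAC, against 18353.6, 13500.6, 11339.7 and 16283.3 after sham surgery. The male groups touched at 1 array each and the female groups overlapped widely. It rose 1.53-fold in males (0.62 ± 0.17, adjusted p = 0.0141), a call lost without male TAC replicate 5 (0.47, adjusted p = 0.0546) and when the Gapdh ratio entered the model (1.02, adjusted p = 0.0612). In females it differed by 0.33 ± 0.17 (adjusted p = 0.207). Entering the 18S signal gave 0.96 in males (adjusted p = 0.0139) and 0.53 in females (adjusted p = 0.0668), and entering the Gapdh ratio gave 0.605 in females (adjusted p = 0.159).

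The second probe set of Actb, 1419734_at, was called in neither sex. Its means were 1392.4 ± 336.4 in male TAC and 1137.7 ± 248.7 in male shams (SD, n = 4 each; log2 difference 0.28 ± 0.17, adjusted p = 0.273). In females they were 1252.6 ± 83.49 after TAC and 1124.2 ± 127.5 after sham surgery (0.16 ± 0.17, adjusted p = 0.59). The 95% confidence intervals of the difference, -0.06 to 0.63 in males and -0.19 to 0.50 in females, overlap those of 1436722_a_at. Entering the 18S signal gave 0.70 in males and 0.40 in females, and entering the Gapdh ratio gave 0.03 and -0.01, none of them called. Averaged over the sexes it passed when the 18S signal entered the model (0.55, adjusted p = 0.0286) and in no other alternative.

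The 3 Actb controls were outside the model and were tested singly by exact permutation of the arrays, two-sided, where 4 against 4 arrays cannot give a p below 0.0286. The 3′ control had 16814.4 to 20258.1 in male TAC and 10391.9 to 12493.6 in male shams, 16620.3 to 20787.4 in female TAC and 11193.3 to 13401.3 in female shams. No TAC array overlapped with the shams of either sex, and the log2 difference was 0.74 in males and 0.59 in females (exact permutation p = 0.0286 each, adjusted 0.0381 over 8 tests). The middle control differed by 0.68 in males (adjusted exact p = 0.0381) and 0.37 in females (adjusted exact p = 0.0653), and the 5′ control by 0.51 and 0.26 (adjusted exact p = 0.0381 each). Without male sham replicate 2 or 3, or any 1 female sham array, each of the 5 calls was lost (adjusted exact p = 0.0571 to 0.143). For the sex whose arrays were all kept, the value was the same and only the adjustment changed. Over all such fits the 3′ control differed by 0.701 to 0.804 in males and by 0.539 to 0.648 in females. The middle control in males also lost its call without male sham replicate 1, and the 5′ control did so in males without male TAC replicate 1. In females, the 5′ control differed by 0.14 without female TAC replicate 5 (adjusted exact p = 0.114).

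The difference between TAC and sham was thus numerically smaller toward the 5′ end. The 3′ minus 5′ log2 difference was 0.76 ± 0.227 in male TAC and 0.52 ± 0.11 in male shams, a gap of 0.23 (exact permutation p = 0.114). In females it was 0.78 ± 0.174 after TAC and 0.45 ± 0.034 after sham surgery, a gap of 0.33 (exact permutation p = 0.0286, adjusted 0.0381). The female gap no longer passed without any 1 of the 4 female sham arrays (0.32 to 0.34, adjusted exact p = 0.0762 to 0.0914), or without male sham replicate 2 or 3, which changed only the adjustment (adjusted exact p = 0.0571). The male gap passed without male TAC replicate 4 (0.33, adjusted exact p = 0.0327). The 3′ to 5′ ratio of the Gapdh control, given above, was likewise higher on every TAC array than on every sham array of the same sex. The part of this balance in the rise of Actb was not tested.

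**Figure D3:**
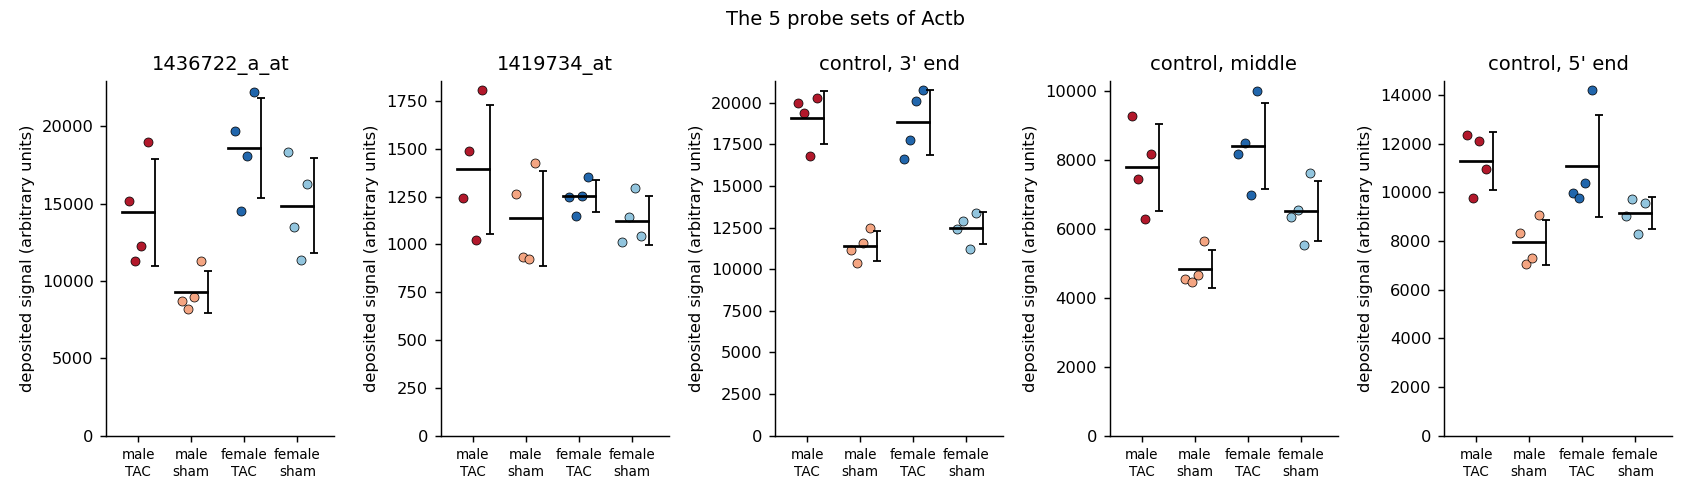
Signals of the 5 Actb probe sets (vertical axes, arbitrary units, from 0) in the 4 groups, with 2 ordinary probe sets at the left and the 3′, middle and 5′ array controls at the right; points are arrays, lines are means and bars are SD (n = 4). The 3′ control separates TAC from sham arrays in both sexes, and 1419734_at does not.

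Setting each gene against Actc1 on its own array removes the scaling of the array, and shows unequal change only. Averaged over the sexes, Actc1 itself differed by -0.31, beside a median of -0.03 for all probe sets. A probe set with no change of its own thus also moves up relative to Actc1. How many of all probe sets did so was not counted. Of the 5 other actins, 4 moved up relative to Actc1 in the averaged comparison with an adjusted p below 0.05. The change was 3.13 for Acta1, 1.13 for Actg2, 0.995 for Actg1 and 0.79 for Actb on the log2 scale (exact permutation p = 0.000408 each, the smallest these arrays allow, adjusted 0.00306 over 30 tests). For Acta2 it was 0.31 (exact permutation p = 0.138, adjusted 0.186).

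Acta1 minus Actc1 averaged -0.66 ± 0.577 in male TAC, -0.57 ± 0.189 in female TAC, -3.18 ± 0.788 in male shams and -4.31 ± 0.313 in female shams (SD, n = 4 each). Within 1 sex the smallest possible exact p is 0.0286, which here adjusted to 0.0504 over the family, so no difference within a sex passed. That adjusted value depends on how many other tests of the family reached so low a p. In both sexes the TAC arrays lay above the sham arrays without overlap for Acta1, Actg2, Actb and Actg1 relative to Actc1. For Acta2 they did so in males, with a change of 0.68 relative to Actc1, and overlapped in females, with a change of -0.06. The separation of Actg2 in males was narrow, with the nearest arrays at -6.055 in TAC and -6.066 in sham. The share of all probe sets without overlap relative to Actc1 was not counted, and Actc1 itself was lower without overlap in female TAC.

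**Figure D4:**
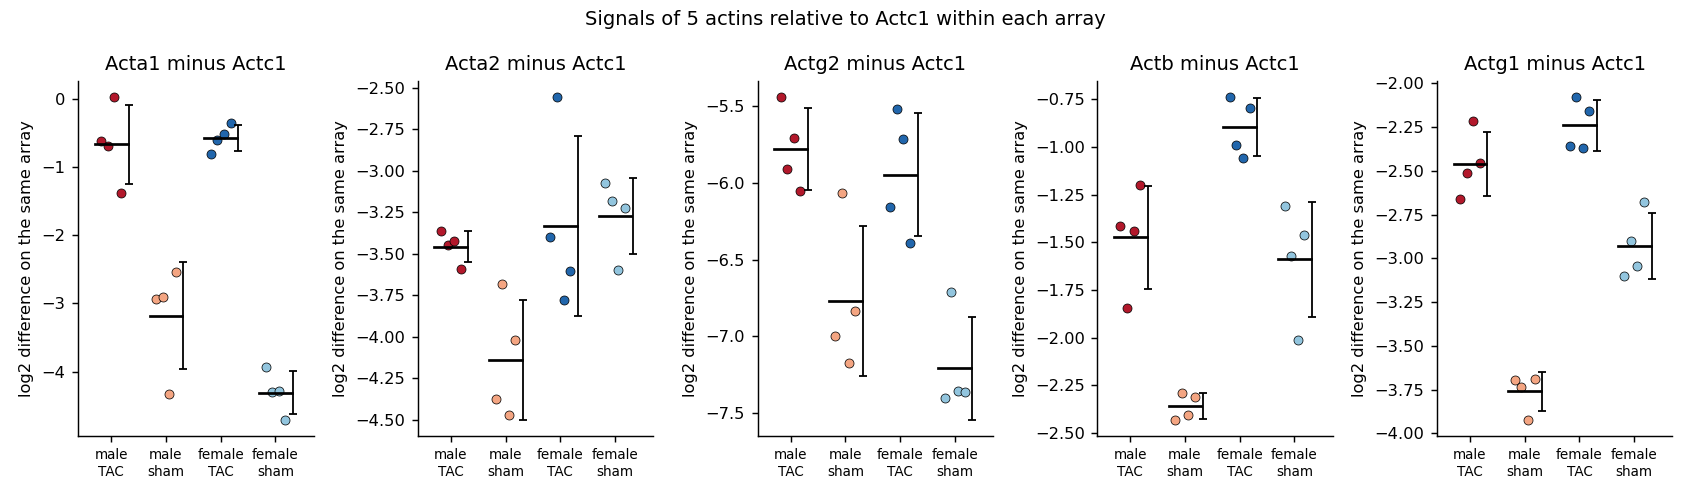
Log2 signal of 5 actins minus that of Actc1 on the same array (vertical axes) in the 4 groups; points are arrays, lines are means and bars are SD (n = 4). TAC arrays lie above sham arrays of the same sex for Acta1, Actg2, Actb and Actg1, and for Acta2 in males but not in females.

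Between the sexes, 1 actin probe set was called among shams and 0 after TAC. Actg1 was higher in female shams, at 5800.1 ± 808.1, than in male shams, at 3515.7 ± 610.9 (SD, n = 4 each; log2 difference 0.73 ± 0.13, adjusted p = 0.0107). It was the 1 of 7 actin probe sets called, where 0.0958% of all probe sets were called higher in female shams. The call was lost without male sham replicate 3 (0.67, adjusted p = 0.0554) and without the intensity trend (0.73, adjusted p = 0.0645).

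For 3 actin probe sets, all female shams lay above all male shams: Actg1, Acta2 1416454_s_at and Actb 1436722_a_at, against 3.59% of all probe sets. Acta2 averaged 4587.2 ± 682.5 in female shams and 2730.0 ± 640.2 in male shams (0.76 ± 0.17, adjusted p = 0.0616). Actb averaged 14869 ± 3081 in female shams and 9288.2 ± 1384 in male shams (0.67 ± 0.17, adjusted p = 0.114). Neither passed, although Acta2 did so in 6 of 29 alternatives, 3 of them without a single array (female TAC replicate 2 or 3, or male sham replicate 4, adjusted p = 0.0224, 0.0473 and 0.0448). Actb 1436722_a_at passed with only the sham groups in the model (adjusted p = 0.0489) and with a replicate block (adjusted p = 0.0148). Its separation was narrow, with the nearest arrays at 11339.7 in female shams and 11301.7 in male shams. The second probe set of Actb, 1419734_at, differed by 0.002 between shams (adjusted p = 0.998). The Actb controls had higher means in female shams, but their sham groups overlapped.

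Acta1 ran the other way in the shams, at 2251.2 ± 529.8 in females and 5861.5 ± 2990 in males (-1.24 ± 0.30, adjusted p = 0.096). The dimmest male sham array, replicate 3 at 2352.5, lay inside the female range, and without it the difference passed (-1.62, adjusted p = 0.00369). It also passed when the 18S signal entered the model (-1.53, adjusted p = 0.045). After TAC, the sexes differed by -0.10 for Acta1, 0.02 for Actg1, -0.07 for Acta2, 0.38 for Actb 1436722_a_at and -0.12 for Actb 1419734_at. In that comparison 0 of the 7 probe sets were called, against 0.0663% of all. At an unadjusted p below 0.05 it was 1 of the 7, Actb 1436722_a_at, against 6.44% of all.

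The response of females minus that of males was tested directly, and 0 of the 7 actin probe sets passed, against 0% of all. At an unadjusted p below 0.05 the counts were 3 of 7 actin probe sets and 897 of 13576 in all. The 3 were Acta1, at 1.13 ± 0.42 (95% confidence interval 0.25 to 2.02, adjusted p = 0.664), Acta2, at -0.84 ± 0.24 (-1.35 to -0.33, adjusted p = 0.536), and Actg1, at -0.71 ± 0.18 (-1.08 to -0.33, adjusted p = 0.432). Relative to Actc1 on the same array these values were 1.23, -0.74 and -0.61 (exact permutation p = 0.0576, 0.109 and 0.0845). That permutation exchanged the sex labels within each operation. Its null is thus no sex difference in either operation, which is narrower than equal responses. Without female TAC replicate 2 the value for Acta2 was -1.003 (adjusted exact p = 0.0343). These differences share their sham arrays with the comparison of the sham groups above, so the 2 sets of values are not independent.

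By the mean signal, the order of the groups was male TAC, female TAC, male sham and female sham for both Acta1 and Actg2. For Acta1 only the step between female TAC and male sham was free of overlap, and for Actg2 every neighbouring pair overlapped. For Actg1 the order was female TAC, male TAC, female sham and male sham, with a clear step only between the last 2. For the reporting probe set of Actb it was female TAC, female sham, male TAC and male sham, with overlap throughout. That order was not shared by the other Actb probe sets. The other ordinary probe set and each array control of Actb had higher means in both TAC groups than in either sham group. Acta2 was highest in female shams, followed by male TAC, female TAC and male shams, and Actc1 was highest in male shams, followed by female shams, male TAC and female TAC, again with overlap between neighbours.

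The genes whose log2 signals followed each actin most closely over the 16 arrays are given with Pearson's r, which also carries the differences between the 4 groups, and with r after the group means were subtracted. Acta1 was followed by Hspb8, a small heat shock protein (r = 0.938, and 0.301 within groups), P4ha1, a subunit of prolyl 4-hydroxylase (0.916 and 0.536), Tnfrsf12a, the TWEAK receptor (0.914 and 0.114), Mrps34 (0.913 and 0.533) and Hspb11 (0.904 and 0.725). Tnfrsf12a itself rose by 2.21 in males and 2.83 in females on the log2 scale. Actc1 was followed by Slc25a4, the mitochondrial adenine nucleotide carrier (0.927 and 0.831), Tpm1, α-tropomyosin (0.902 and 0.801), Fth1, ferritin heavy chain (0.896 and 0.824), Myl2, the ventricular light chain (0.892 and 0.855), and Cox4i1, a subunit of cytochrome c oxidase (0.891 and 0.711).

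The other actins had other neighbours, given with the same pair of values. Those of Acta2 were Fis1 (0.816 and 0.739), the proteoglycan Lum (0.812 and 0.561), Map3k4 (0.768 and 0.388), the homeobox gene Meox2 (0.736 and 0.475) and Ssna1 (0.724 and 0.633). All of these had the same signs as Acta2 in the 2 sexes, which choosing them by r over all arrays favours. Of them only Lum was called, rising in males by 0.66, and it differed by -0.40 in females (adjusted p = 0.0932). Actg2 was followed by Cpxm2 (0.897 and 0.621), Rps27l (0.894 and 0.645), Mafk (0.875 and 0.646), Cux1 (0.872 and 0.635) and Wdfy1 (0.864 and 0.578). For Actb the list was the protein disulfide isomerase P4hb (0.922 and 0.797), Serf2 (0.873 and 0.85), Tceal9 (0.862 and 0.573), the integrin Itga6 (0.847 and 0.584) and Itih5 (0.846 and 0.712). Itih5 also led the list of Actg1 (0.928 and 0.333), before Fam102a (0.904 and 0.357), the fibrillar collagen Col3a1 (0.895 and 0.485), Smg5 (0.894 and 0.419) and Cndp2 (0.892 and 0.626). Itih5 rose by 1.94 in males and 0.80 in females, and Col3a1 by 1.96 in males and 0.91 in females. Between the members, r was 0.83 for Acta1 and Actg2 (0.27 within groups) and 0.81 for Actb and Actg1 (0.47 within groups).

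Other parts of the actin system were counted over the genes past the filter, with 1 probe set per gene, beside a median over all genes of -0.01 in both sexes. Over all 8272 genes counted in that way, 8.1% rose and 7.77% fell in males, and 6.37% rose and 6.69% fell in females. Of the striated thin filament genes 8 of 9 passed the filter, and of these 0 rose and 2 fell in males and 4 in females (median -0.22 and -0.31). Nebl, the nebulin-related protein nebulette, fell by 1.74 in males and fell by 2.26 in females, and Tnni3, cardiac troponin I, fell by 0.39 in males and fell by 0.28 in females. Among 13 genes, of 14 listed, of actin monomer binding and turnover, 6 rose and 1 fell in males, and 3 rose and 1 fell in females (median 0.40 and 0.24). The G-actin-binding thymosin Tmsb10 rose by 1.15 in males and 0.82 in females and profilin Pfn1 by 0.66 in males and 0.99 in females, while Cap2, a cyclase-associated protein of striated muscle, fell by 0.46 in each sex.

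Of 14 genes, of 21 listed, of filament nucleation and capping, 2 rose and 2 fell in males, and 1 rose and 1 fell in females (median 0.03 and 0.16), in females a share near that of all genes. The cortactin gene Cttn rose by 1.04 in males and 0.85 in females, the Arp2/3 subunit Arpc5 rose by 1.09 in males and differed by 0.49 in females (adjusted p = 0.0687), and the pointed-end capping protein Tmod3 fell by 0.65 in males and fell by 0.73 in females. Of 13 genes, of 14 listed, of the CCT chaperonin and its helpers, which fold actin, 3 rose in males and 1 in females, in females a share near that of all genes, and 0 fell in either sex (median 0.24 and 0.13). Cct8 rose in males by 0.48 and Cct3 in females by 0.62. Of 12 genes, of 14 listed, of SRF, its cofactors and other transcriptional regulators 4 rose in males and 1 in females, in females again near the share of all genes. In either sex 0 fell (median 0.07 and 0.13). The 4 were Srf, Elk3, Yap1 and Wwtr1, and the 1 in females was Srf. Srf was up by 0.67 in both sexes (adjusted p = 0.0171 in males and 0.0204 in females). The SRF cofactors Mrtfa (0.308 in males and -0.105 in females) and Myocd (-0.109 and 0.129) were not called. Elk3, an SRF partner, rose by 0.72 in males and differed by 0.42 in females (adjusted p = 0.0875).

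Of 10 smooth muscle contractile genes past the filter, of 12 listed, 6 rose and 1 fell in males, and 2 rose and 2 fell in females (median 0.49 and 0.22). The 6 were Cald1, Des, Pdlim3, Myl9, Tagln and Tpm2, of which Cald1 and Des also rose in females. Smtn and Mylk were not called in either sex, and Myh11 fell in females only. The part of heart muscle cells in these signals was not tested. The actin-binding Cald1, caldesmon, rose by 0.91 in males and 0.89 in females, and Synpo2 fell by 1.06 in males and fell by 0.96 in females. Of 9 activated fibroblast genes past the filter, of 12 listed, 8 rose in males and 7 in females (median 1.63 and 1.24), with the matricellular Postn up by 2.90 in males and 2.14 in females and collagen Col1a2 by 2.14 in males and 1.67 in females. Acta2, which such cells are known to express, was not called beside them. The summed signal of 9 fibroblast markers was 38606 to 48795 in male TAC and 26272 to 29689 in male shams, 34532 to 41810 in female TAC and 29947 to 35081 in female shams. That of 7 macrophage markers was 10247 to 11235 in male TAC and 6249 to 8864 in male shams, 8594 to 12444 in female TAC and 6400 to 7607 in female shams. Both cell types are rich in cytoplasmic actin, and their part in the rises of Actb and Actg1 was not tested.

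Of the fetal cardiac list, which excludes Acta1, 5 of 8 genes passed the filter, and these 5 rose in both sexes (median 2.08 in males and 1.86 in females). The slow myosin heavy chain Myh7 rose by 4.31 in males and 3.03 in females, and the natriuretic peptide Nppa by 2.52 in males and 2.67 in females. Between female and male shams 0 genes were called in any of the 8 lists, against 0.314% of all genes.

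**Figure D5:**
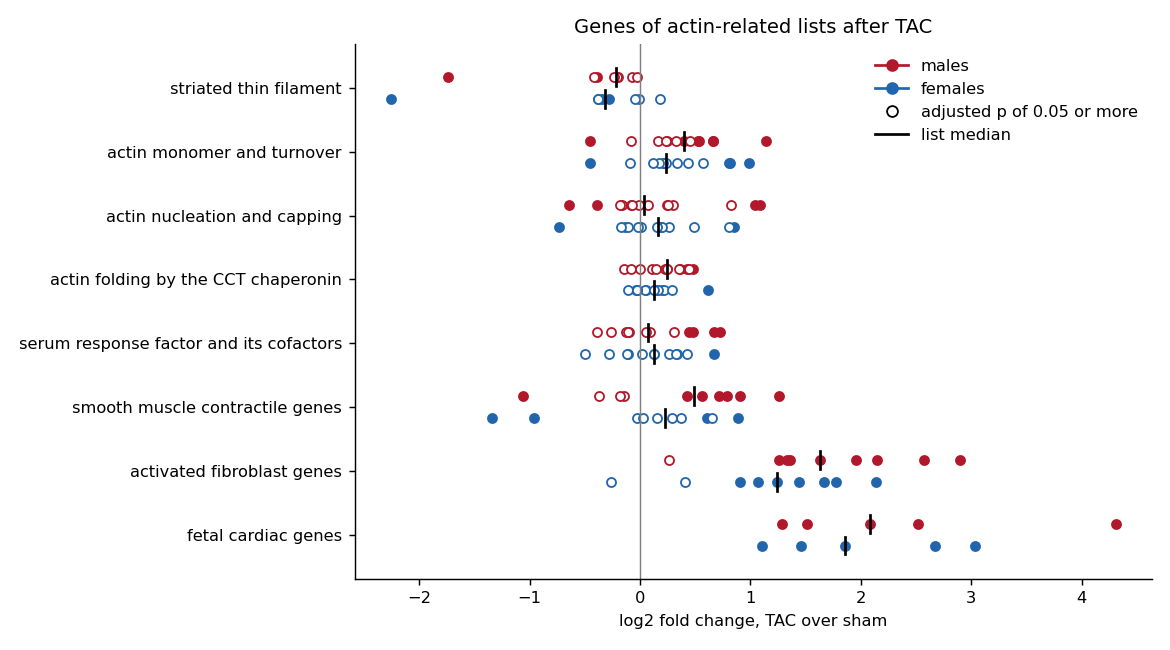
Log2 fold change of TAC over sham (horizontal axis) of each gene in 8 lists related to actin, in males (red) and females (blue); filled points have an adjusted p below 0.05 and black ticks are list medians. Fetal cardiac and activated fibroblast genes lie to the right, apart from Thbs1 at -0.26 in females, and the striated thin filament genes lie at or below 0 apart from 1 in females.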

How the data were processed

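Left ventricular RNA of 16 mice was measured on 16 Affymetrix arrays, 4 per group, from oligo(dT)-primed cRNA, per the labels' protocols. Samples were grouped by sex and operation as their labels give them. The arrays are named RAE 430A in the series text, a name of rat arrays, but their probe sets and platform annotation match the mouse 430A design. The deposited values are the authors' signal intensity per probe set from GCOS, per the submitters' processing notes (version not given). Detection calls were not used here. As tested on the values, the deposited intensity was scaled to a common level, with a mean of 500.21 to 500.25 per array after 2% was trimmed from each end. That scaling was kept. Precision is limited by the number of arrays. Of the probe sets other than controls, 20380 had 1 gene symbol, 691 had several and 1555 had none.

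Signals were transformed as log2(signal + 16). The 64 control probe sets and the 40% of the others with the lowest mean were left out, which left 13576 probe sets for 8272 genes with 1 symbol. The model was fitted with limma 3.58.1 (R 4.3.3), with 4 group means over all 16 arrays, an intensity trend, two-sided tests and Benjamini-Hochberg adjustment at 0.05. Scripts were tested on simulated data. Differences between 2 actins on an array and the Actb controls were tested by exact permutation. A gene is reported by its probe set with the highest mean, and all actin probe sets are given. The 5 other genes with the highest correlation to each actin, and up to 3 genes with the smallest p in each list, were eligible to be named. Further genes of the SRF and smooth muscle lists are named to show which members were counted. Members of lists were counted with p adjusted over all probe sets. Promoters are those of RefSeq.

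Alternatives were 2 other normalizations, pseudocounts of 1 and 64, other filters, a prior without the trend, weights per array, a single probe set for each gene, fits to the compared groups alone, a replicate block, 2 quality covariates and leaving out each array in turn. The actin probe sets in the model were refitted under these where they apply, the exact tests under the pseudocounts and with each array left out, and gene lists and correlations under none. The members, lists and tests were chosen with earlier results of these data known.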

Additional observations from a re-analysis of the deposited data

Results flagged for a closer look

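Among the 44 groups formed by 11 actin probe sets and 4 groups of mice, 6 held 1 array that stood apart from the other 3 by more than the gap that chance exceeds in about 5% of groups of this size. Actg2 was highest in male TAC replicate 1, at 917.0, and, among female shams, in replicate 2, at 369.1. Actc1 was lowest among female shams in replicate 2, at 40235.2. Actg1 was highest among female shams in replicate 4, at 7002.7, the array that made the female groups overlap. The middle control of Actb was highest among male shams in replicate 4, at 5648.8, and its 5′ control was highest among female TAC arrays in replicate 5, at 14218.6. Why these arrays stood apart was not tested.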

How the results depend on the processing

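The rises of Acta1 in either sex and of Actg1 in males, and both averaged over the sexes, passed under every alternative tried, with Acta1 between 1.61 and 2.54 in males and between 3.01 and 3.52 in females. With the Gapdh covariate, the counts of actin probe sets called were 2 in males, 1 in females and 3 averaged. Between female and male shams the count was 2 with the dimmest 60% left out or with the 18S covariate, 0 without the intensity trend, 3 with only those groups fitted, and 1 to 2 when an array was left out. The labels do not say whether equal replicate numbers pair the animals, and the reported fit did not use them so. Same-numbered TAC and sham arrays deviated together with correlations of -0.03 to 0.12, which do not settle it. A replicate block raised the sham count to 3 and turned the female minus male difference after TAC for Acta1 to 0.063 and for Acta2 to 0.029.

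Quantile normalization turned Actc1 in males to 0.039, against -0.267 in the reported fit, and gave 0.029 for Actc1 and -0.005 for Actb 1419734_at between female and male shams. Other signs turned as well. Acta2 averaged over the sexes was 0.08 with median centring and 0.046 with array weights, and between the sexes after TAC it was 0.0 with median centring and 0.057 with the Gapdh covariate. With that covariate, Actb 1419734_at in females was -0.012. When single arrays were left out, the female minus male difference after TAC spanned -0.294 to 0.048 for Acta1, -0.251 to 0.027 for Acta2, -0.257 to 0.013 for Actb 1419734_at and -0.065 to 0.08 for Actg1, and relative to Actc1 it spanned -0.145 to 0.325 for Acta1 and -0.135 to 0.271 for Acta2. Likewise Acta2 averaged over the sexes spanned -0.093 to 0.055, Acta2 relative to Actc1 in females -0.323 to 0.084, and Actb 1419734_at -0.258 to 0.011 for the difference of responses and -0.089 to 0.117 between shams. The 3′ minus 5′ gap of the Actb controls spanned 0.16 to 0.331 in males and 0.27 to 0.404 in females. Why these values moved was not tested.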
